A study of Mus musculus with 196 samples.

Results

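Mouse germ cells cultured for 9 days were set beside oocytes taken from embryos, to describe which genes of the fetal oocyte the cultures did not reach and which they exceeded. The libraries were chosen by their labels: 4 libraries of day 9 culture and 2 oocyte libraries, 6 of the 194 libraries with values. A further library, primordial germ cells (PGCs) of E9.5 embryos, gave the starting level. The 3' ends of mRNA were sequenced, and values are reads per 1000000 reads of endogenous genes (RPM).

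The cultured cells were PGC-like cells (PGCLCs), which derive from embryonic stem cells through an epiblast-like state and were expanded on m220 feeder cells, a line that displays membrane-bound SCF. All carried the reporters Prdm1-mVenusTg/0 and Dppa3-ECFPTg/0 on a 129S1:C57BL/6 background and were sorted for Dppa3-ECFP. The DoxRA group (2 libraries, labelled culture day 9) was a single clone, A2, with a piggyBac tetO/mCMV transgene for the Zglp1 coding sequence and mCherry and an EF1a-driven rtTA transgene, and was given doxycycline (Dox) and retinoic acid (RA). The B2RA group (2 libraries, titled day 9) was the parental line H18 without these transgenes, given BMP2 and RA. The stage label of this group names an earlier culture day than the title, and the day was taken from the title. The oocytes were 1 library at E14.5 and 1 at E15.5, from ICR:C57BL/6 embryos carrying Ddx4-RFPTg/0. The E9.5 PGC library came from embryos of the same cross carrying Dppa3-EGFPTg/0. Culture and embryo therefore differ in strain, reporter and sort as well as in origin, and these cannot be told apart. RNA of the embryo libraries was extracted by the first of a pair of labelled protocols and that of the 4 day 9 libraries by the second. Among day 7 DoxRA libraries 1 was extracted as the embryo was, and its values are given beside the results that they touch.

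PGCs that reach a fetal ovary stop dividing and enter meiotic prophase. BMP signals and retinoic acid from the gonad act on this step: ZGLP1, a GATA-like zinc finger protein, acts downstream of BMP and sets up the oogenic programme, and STRA8, with its partner MEIOSIN, is induced by RA and activates meiotic genes. In prophase, cohesin and axis proteins organise the chromosomes, SPO11 cuts DNA, DMC1 repairs the cuts through the homologue, and the synaptonemal complex holds homologues together. Meanwhile genes of the early germ cell, such as Dppa3, are turned down.

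The 7 libraries held 1254508 to 4181324 reads, fewest in DoxRA replicate 2, and every value was a whole number of reads. Defining markers fitted the labels. Ddx4, a germ cell RNA helicase, stood at 618 and 813 RPM in DoxRA, 471 and 454 in B2RA, 579 and 629 in oocytes and 19.4 in E9.5 PGCs. Dppa3, the early germ cell gene, stood at 4.62 and 2.39 RPM in DoxRA, 55.4 and 105 in B2RA, 87.3 and 39.7 in oocytes and 2486 in E9.5 PGCs. In these sorted bulk samples fewer cells of a type and less RNA per cell cannot be told apart. There is 1 library per embryonic stage, so differences between culture and oocytes are given without p-values. A difference was called when the mean log2(RPM + 1) of the 4 culture libraries lay at least 2 (4-fold on that scale) from the mean of both oocyte libraries and no library of one kind overlapped the other. Low genes are understated on this scale.

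Most genes of the oocyte stood near the oocyte level in culture. Of 9530 genes with at least 10 RPM in 2 of the 6 libraries, 7683 (80.6%) lay within 1 on the log2 scale of the oocytes, and 33 (0.346%) were called lower and 261 (2.74%) higher in culture. The median difference over all tested genes was 0.25. With TMM scaling factors in place of the RPM totals this median was -0.07, and 50 genes were called lower and 181 higher, so differences are best read against the median of all genes. Among called genes, 11 lower and 33 higher ones have symbols of predicted genes or clones, which are counted but not named.

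**Figure D1:**
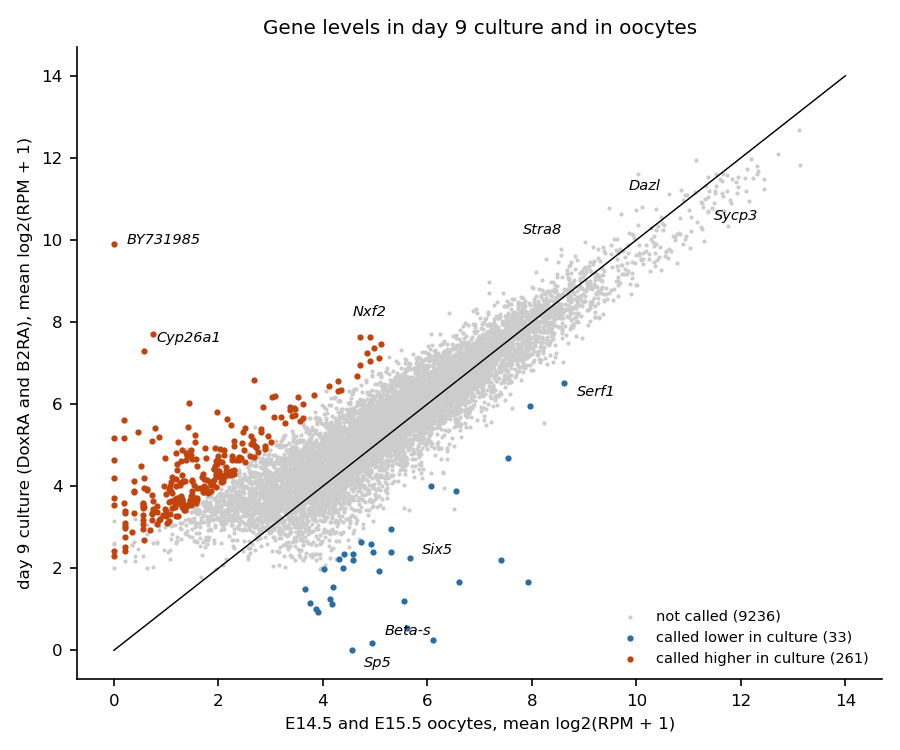
Mean log2(RPM + 1) of the 4 day 9 culture libraries against the mean of the E14.5 and E15.5 oocyte libraries, 1 point per tested gene, with the line of equal levels. The 261 genes called higher mostly sit at low oocyte levels, whereas Dazl and Sycp3 lie near the line at the top.

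The E9.5 library divides these genes by what happened in the embryo. Genes that stood at least 2 (log2) higher in oocytes than in E9.5 PGCs numbered 1557, and in culture 19 of them were called lower and 7 higher, with 85.7% within 1 of oocytes. Genes that stood at least 2 lower in oocytes than in E9.5 PGCs numbered 780, and 0 of them were called lower and 84 higher, with 49.0% within 1. The remaining 7193 genes held 14 lower and 170 higher calls, with 82.9% within 1. The oocyte libraries enter both axes of this division, so the counts are a description. Calls were more frequent among genes that the embryo had turned down than among genes that it had turned up. However, genes with little RNA in oocytes, such as Prex2, passed the filter through culture alone and could not be called lower. This difference in calls was therefore in part set by the filter and the classes.

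The genes with the largest rise from E9.5 that culture matched were Dazl, Taf7l, Sycp3, Spdya, Tktl1, Smc1b, Ccdc172 and Tex16. Matched genes were picked by a mean within 0.5 (log2) of oocytes and all 4 libraries within 1 of the oocyte mean. Their closeness to oocytes is therefore the rule and not a result. Dazl, a germ cell RNA-binding protein that licenses meiosis, stood at 2312 and 2191 RPM in DoxRA and 2257 and 2045 in B2RA, against 2076 and 1908 in oocytes and 0.239 in E9.5 PGCs. The 6 libraries overlapped. Smc1b, a meiotic cohesin subunit, stood at 2858 and 2120 RPM in DoxRA and 1622 and 1643 in B2RA, against 1686 and 2122 in oocytes and 7.41 in E9.5 PGCs. Taf7l, a germ cell subunit of the general transcription machinery, stood at 1288 and 1212 RPM in DoxRA and 1554 and 1027 in B2RA, against 1042 and 1464 in oocytes. Tktl1 and Tex16 are both X-linked.

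Most tested regulators of meiotic entry lay within 1 (log2) of the oocyte level, as did most tested genes. Zglp1 stood at 19.1 and 8.77 RPM in DoxRA and 48.8 and 53.6 in B2RA, against 23.0 and 21.4 in oocytes and 0.957 in E9.5 PGCs. Whether reads of the transgene, which holds the Zglp1 coding sequence, are counted in this row was not tested. The mCherry row of that transgene stood at 4609 and 1720 RPM in DoxRA and at 0 in both B2RA libraries. Stra8 stood at 1155 and 1518 RPM in DoxRA and 658 and 805 in B2RA, against 528 and 508 in oocytes and 0.239 in E9.5 PGCs, so all 4 culture libraries lay above the oocytes, by 0.92 in the mean, which is short of a call. Of the 15 listed regulators 14 were tested, 10 lay within 1 of oocytes, and 2 were called higher. Over all tested genes 80.6% lay within 1 and 2.74% were called higher, so the list was no closer to oocytes than other genes. The list median was 0.32, near that of all genes.

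The regulators called higher were Meiosin and Kctd19. Meiosin stood at 11.3 and 7.17 RPM in DoxRA and 13.4 and 19.9 in B2RA and was listed at 0 in both oocyte libraries, so with a floor of 3 reads over the group it was at least 26.3-fold higher. However, Meiosin was listed at 0 in all 22 libraries of the first extraction protocol, and at day 7 DoxRA gave 0 RPM under the first protocol and 9.61 under the second. Its place relative to oocytes therefore cannot be told apart from the protocol. Kctd19, which works with the meiotic transcriptional regulator Zfp541, stood at 21.4 and 19.9 RPM in DoxRA, 0.651 and 1.68 in B2RA, 0 in E14.5 and 0.357 in E15.5 oocytes. The excess lay in DoxRA, and the DoxRA minus B2RA difference was 3.36 ± 0.38 (log2, SE; limma adjusted p = 8.94e-12; 2 libraries each). Zfp541 itself stood at 256 and 238 RPM in DoxRA and 139 and 172 in B2RA, against 169 and 234 in oocytes.

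Listed genes of meiotic prophase mostly stood near the oocyte level in both cultures, as did most tested genes. All 8 tested cohesin and axis genes of 9 listed lay within 1 of oocytes, with a median of -0.003. Sycp3, a component of the chromosome axis, stood at 1645 and 2801 RPM in DoxRA and 1879 and 1514 in B2RA, against 2194 and 2694 in oocytes. Hormad1, an axis protein that promotes break formation, stood at 684 and 827 RPM in DoxRA and 557 and 286 in B2RA, against 770 and 824 in oocytes. Of 15 listed genes of break formation and strand exchange 11 were tested and 10 lay within 1, of 14 listed crossover factors 11 were tested and 10 lay within 1, and of 8 listed telomere tethering genes all 5 that were tested did. None of these lists held a call. Over all tested genes 80.6% lay within 1, as did 85.7% of the genes that rose from E9.5. Calls were made at 0.346% (lower) and 2.74% (higher) of all tested genes. The closeness to oocytes is therefore not particular to these lists. Taken apart, the DoxRA and B2RA medians were 0.29 and -0.30 for cohesin and axis genes and -0.02 and -0.49 for break formation. They were -0.20 and -0.25 for crossover factors and 0.10 and -0.45 for telomere tethering. With TMM factors all medians are about as much lower as that of all genes, and the cohesin and axis median was -0.33.

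**Figure D2:**
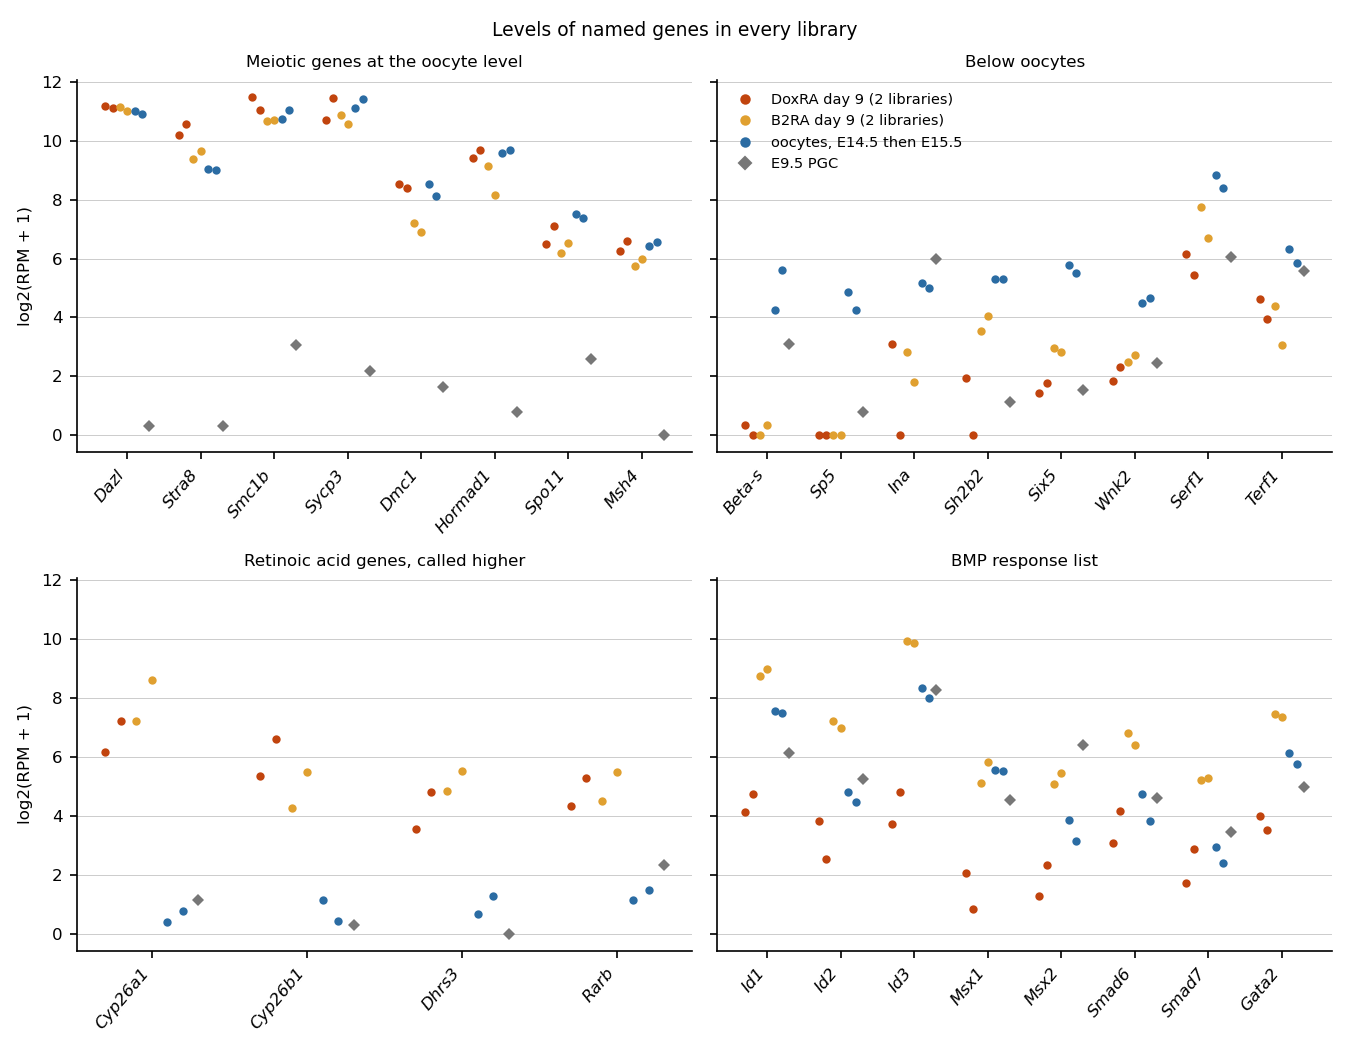
Level of named genes as log2(RPM + 1) in each of the 7 libraries, in the order DoxRA, B2RA, E14.5, E15.5 and E9.5. Meiotic genes stand near the oocytes and far above E9.5, the RA genes stand above the oocytes in all 4 culture libraries, and oocytes lie between DoxRA and B2RA at several BMP response genes.

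The part of the meiotic programme that stood lowest was the synaptonemal complex. Of 7 listed genes 5 were tested, none was called, and the median was -0.72, which is 0.97 below the median of all genes. Syce3, a protein of the central element, stood at 131 and 103 RPM in DoxRA and 211 and 95.4 in B2RA, against 310 and 484 in oocytes. All 4 culture libraries lay below the oocytes. Syce2, another central element protein, stood at 624 and 619 RPM in DoxRA and 729 and 664 in B2RA, against 1335 and 1288 in oocytes. In the day 7 DoxRA library extracted as the embryo was, Syce2 stood at 1160 RPM, Syce3 at 252 and the list median at -0.18, so the lag at day 9 was smaller or not seen there. Mei1, needed for meiotic breaks, stood at 41.0 and 42.2 RPM in DoxRA and 41.4 and 52.8 in B2RA, against 115 and 165 in oocytes, and at 59.6 RPM in that day 7 library.

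Germline genes that DNA methylation keeps silent before meiosis had all come up. All 22 listed genes were tested and none was called. Their median was -0.40, which is 0.65 below that of all genes, and 20 lay within 1 of oocytes. The exceptions were Mei1 and Fkbp6, a co-chaperone of the piRNA pathway, which stood at 69.6 and 77.3 RPM in DoxRA and 86.0 and 113 in B2RA, against 178 and 180 in oocytes. All 12 tested piRNA and tudor genes of 17 listed lay within 1 of oocytes. Over all tested genes 80.6% did, as did 85.7% of the genes that rose from E9.5. The closeness of both lists to oocytes is thus shared by most genes. Mael, a piRNA pathway protein, stood at 593 and 478 RPM in DoxRA and 435 and 463 in B2RA, against 961 and 908 in oocytes, below them in every library.

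Of 12 listed oocyte transcription factors 8 were tested and 7 lay within 1, as did 80.6% of all tested genes. The exception was Figla, which switches on zona pellucida genes in later oocytes. It stood at 48.8 and 31.1 RPM in DoxRA and 95.7 and 80.0 in B2RA, against 195 and 197 in oocytes and 0.239 in E9.5 PGCs, so that culture had reached part of the oocyte level. Figla rose between day 7 and day 9 by 1.05 ± 0.36 (log2, SE; limma adjusted p = 0.0173; 4 libraries at each day, averaged over both treatments), but the step was -0.54 in DoxRA and 2.63 in B2RA, so the treatments went opposite ways.

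Several prophase genes were still moving between day 7 and day 9, mainly in B2RA. The limma fit of day 9 minus day 7, averaged over DoxRA and B2RA, called 706 genes higher (6.96% of 10144 tested) and 567 lower (5.59%), and the edgeR quasi-likelihood test on recovered reads called 239 higher and 174 lower. Among genes silenced by methylation 9 of 22 rose, among genes of break formation 6 of 11, among crossover factors 5 of 10, among synaptonemal complex genes 3 of 5, and among cohesin and axis genes 4 of 8. The treatments differed in size and in part in direction, a difference that was not tested: over all tested members the median step was -0.46 in DoxRA and 2.65 in B2RA for the synaptonemal complex, 0.33 and 2.11 for cohesin and axis genes, and 0.28 and 1.45 for genes silenced by methylation. Syce3 stepped by -0.52 in DoxRA and 2.78 in B2RA, and Sycp3 by -0.01 in DoxRA and 3.47 in B2RA. Dmc1, the meiotic recombinase, rose by 1.32 ± 0.32 (adjusted p = 6.63e-04). At day 9 it stood at 370 and 333 RPM in DoxRA, 148 and 119 in B2RA and 366 and 276 in oocytes, and at day 7 at 228 and 279 RPM in DoxRA and 28.0 and 29.4 in B2RA. Ccnb3, a cyclin of meiotic germ cells, rose by 2.90 ± 0.33 (adjusted p = 3.29e-11) and at day 9 stood at 155 and 305 RPM in DoxRA and 81.7 and 120 in B2RA, against 59.7 and 68.6 in oocytes. This contrast uses the same day 9 libraries as the comparison with oocytes, and DoxRA at day 7 holds 1 library of each extraction protocol.

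The genes called lower in culture did not belong to the meiotic lists. Beta-s, an adult-type beta globin whose reads could be shared with its near-identical copy, showed the largest named shortfall. It stood at 0.289 and 0 RPM in DoxRA and 0 and 0.281 in B2RA, against 18.2 and 48.2 in oocytes and 7.65 in E9.5 PGCs. Hba-a1, an alpha globin, was at 0.326 RPM or less in culture, 6.36 and 25.4 in oocytes and 47.8 in E9.5 PGCs, and the leukocyte gene Ptprc was at 0 in all culture libraries and at 0 and 0.357 in oocytes. Of 19 listed blood and endothelial markers 17 have values, and Beta-s is not among them. These summed to 17.9 and 21.5 RPM in DoxRA, 26.7 and 36.5 in B2RA, 27.9 and 52.9 in oocytes and 856 in E9.5 PGCs. Egfl7 alone averaged 11.2 RPM in DoxRA and 11.7 in B2RA, so the culture sums say little about blood genes. The part of blood cells in the Beta-s difference was not tested.

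Sp5, a zinc finger gene that responds to WNT signals, was not reached in culture at all. This gene (mm10, chromosome 2, 70474923 to 70477726) had no read in any of the 4 culture libraries and stood at 28.2 and 17.9 RPM in oocytes and 0.718 in E9.5 PGCs. With a floor of 3 reads over the group it was at least 87.1-fold lower in culture. At day 7 it was at 0 RPM in the DoxRA library extracted as the embryo was, 0.447 in the other, and 0 and 0.254 in B2RA. Clone A2 cells labelled control averaged 20.6 RPM of Sp5 at day 9, so the transcript was detected in this clone under another condition.

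Other genes that rose in the embryo and stayed lower in culture were Sh2b2, Wnk2, Myl7, Klhl35, Serf1 and Six5. Sh2b2, an adaptor of growth factor receptors, stood at 2.89 and 0 RPM in DoxRA and 10.7 and 15.7 in B2RA, against 38.8 and 38.2 in oocytes. Wnk2, a kinase, stood at 2.60 and 3.99 RPM in DoxRA and 4.56 and 5.61 in B2RA, against 21.5 and 24.3 in oocytes. Serf1 was the most abundant of them, with 69.9 and 42.2 RPM in DoxRA and 212 and 104 in B2RA, against 451 and 338 in oocytes and 64.8 in E9.5 PGCs. In the day 7 library extracted as the embryo was, Sh2b2 stood at 10.5 RPM, Wnk2 at 5.26 and Serf1 at 126, each below both oocyte libraries.

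Six5, a homeobox transcription factor, did not keep its place under the embryo's extraction protocol. At day 9 it stood at 1.73 and 2.39 RPM in DoxRA and 6.84 and 6.17 in B2RA, against 54.5 and 45.0 in oocytes. At day 7 the DoxRA library of the first protocol held 59.6 RPM and that of the second 12.1, and both day 7 B2RA libraries, of the second protocol, held 14.2. Against that first-protocol library the difference from oocytes was 0.26 rather than -3.40.

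Genes that stood alike at E9.5 and in oocytes and were lower in culture included Ina, a neuronal intermediate filament, Wdr89, Polr2m, Terf1 and Grb10. Terf1, which binds telomere repeats as part of shelterin, stood at 24.0 and 14.3 RPM in DoxRA and 19.9 and 7.30 in B2RA, against 78.2 and 56.1 in oocytes and 46.9 in E9.5 PGCs. Grb10, an imprinted adaptor that restrains growth, stood at 2.60 and 0.797 RPM in DoxRA and 11.7 and 17.7 in B2RA, against 20.6 and 31.5 in oocytes. Wdr89 stood at 23.4 and 6.38 RPM in DoxRA and 21.2 and 10.7 in B2RA, against 145 and 58.6 in oocytes. In the day 7 library of the first protocol Terf1 was at 30.4 RPM, Grb10 at 7.59 and Wdr89 at 26.3, again below both oocyte libraries.

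Genes that respond to retinoic acid, which was supplied to both cultures, were in part far above the oocytes. Of 22 listed RA genes 13 were tested, 5 were called higher, 7 lay within 1, and the median was 0.92. Over all tested genes 2.74% were called higher, 80.6% lay within 1 and the median was 0.25. Cyp26a1 and Cyp26b1 encode enzymes that break RA down, Dhrs3 an enzyme that returns retinal to retinol and Rarb an RA receptor, and all are known direct or early RA targets. Cyp26a1 stood at 69.9 and 149 RPM in DoxRA and 149 and 388 in B2RA, against 0.303 and 0.715 in oocytes and 1.20 in E9.5 PGCs. Every culture library lay far above every embryo library, and the mean difference was 6.72 (log2).

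The promoters of 2 of these genes are shown because they hold a pair of direct repeats of the type that RA receptors bind, close to the start site. They are the 250 bases before the start of Cyp26a1 (chr19:37697558-37697807, plus strand) and of Rarb (chr14:16575477-16575726, minus strand) from RefSeq, build GRCm38.p6. Capitals mark the match to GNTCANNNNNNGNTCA on either strand.
Cyp26a1: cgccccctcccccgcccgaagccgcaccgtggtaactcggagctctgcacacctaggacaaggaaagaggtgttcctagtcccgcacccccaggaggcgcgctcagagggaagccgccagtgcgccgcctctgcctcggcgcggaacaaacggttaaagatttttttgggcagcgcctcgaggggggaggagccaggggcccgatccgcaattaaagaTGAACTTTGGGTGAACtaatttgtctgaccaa
Rarb: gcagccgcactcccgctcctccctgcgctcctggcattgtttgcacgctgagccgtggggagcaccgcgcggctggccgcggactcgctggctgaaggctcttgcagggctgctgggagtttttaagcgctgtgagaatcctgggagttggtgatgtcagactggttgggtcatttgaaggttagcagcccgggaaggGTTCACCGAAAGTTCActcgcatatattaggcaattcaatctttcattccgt

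The Cyp26a1 match lies 32 to 17 bases before the start on the minus strand of the gene, and the Rarb match 52 to 37 bases before it on the plus strand. Such a match on either strand is held by 283 (0.861%) of 32851 RefSeq mouse promoters of 300 bases. Promoters were found for 9 of the 13 tested RA genes, 4 of them called higher; 2 of those 4 and none of the other 5 held it. A related form with closer spacing, GNTCANNNGNTCA, was in none of the 9 and in 1.12% of all promoters. No match says only that these letters are not in this window.

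Rarb had 19.1 and 37.5 RPM in DoxRA and 21.5 and 43.5 in B2RA, against 1.21 and 1.79 in oocytes and 4.07 in E9.5 PGCs. Cyp26b1 had 39.9 and 96.5 RPM in DoxRA and 18.2 and 43.8 in B2RA, against 1.21 and 0.357 in oocytes and 0.239 in E9.5 PGCs. Dhrs3 had 10.7 and 27.1 RPM in DoxRA and 27.7 and 44.9 in B2RA, against 0.606 and 1.43 in oocytes and 0 in E9.5 PGCs. In all of these the cultures stood apart from every embryo library.

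These 4 RA genes were above both oocyte libraries in the day 7 DoxRA library extracted as the embryo was, too, with 111 RPM of Cyp26a1, 45.0 of Cyp26b1, 20.4 of Rarb and 8.18 of Dhrs3. Among RA genes that were not called, Rec8, a meiotic cohesin induced by RA, stood at 117 and 204 RPM in DoxRA and 138 and 321 in B2RA, against 157 and 74.3 in oocytes. Rdh10, which makes retinal from retinol, stood at 63.8 and 91.7 RPM in DoxRA and 80.4 and 51.9 in B2RA, against 51.2 and 41.8 in oocytes. Crabp1, an RA carrier, stood at 16.8 and 8.77 RPM in DoxRA and 16.9 and 28.9 in B2RA, against 31.5 and 20.7 in oocytes.

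Several genes that came up in the embryo stood higher still in culture. Nxf2, an X-linked RNA export factor of germ cells, stood at 119 and 186 RPM in DoxRA and 249 and 274 in B2RA, against 26.1 and 24.7 in oocytes and 0 in E9.5 PGCs. Prss50, a testis-type protease, stood at 255 and 225 RPM in DoxRA and 77.5 and 67.1 in B2RA, against 22.1 and 37.9 in oocytes. Ly6k, a surface protein of germ cells, stood at 224 and 167 RPM in DoxRA and 110 and 126 in B2RA, against 27.9 in each oocyte library, and at 292 RPM in the day 7 library of the first protocol. Car7, a carbonic anhydrase, stood at 17.0 and 18.3 RPM in DoxRA and 43.3 and 70.4 in B2RA, against 3.64 and 7.15 in oocytes. Reg2, a secreted lectin-like protein, stood at 42.2 and 75.7 RPM in DoxRA and 63.2 and 56.1 in B2RA, against 3.03 in E14.5 and 29.7 in E15.5 oocytes, and only the earlier stage lay far below the cultures.

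Genes that the embryo turns down were in part still on. Got1, a transaminase of the malate-aspartate shuttle, stood at 42.7 and 29.5 RPM in DoxRA and 49.5 and 53.3 in B2RA, against 2.42 and 1.07 in oocytes and 147 in E9.5 PGCs. It fell by 0.94 ± 0.15 between day 7 and day 9 (log2, SE; limma adjusted p = 7.80e-07), just under the size asked of a call. Tagln2, an actin-binding protein, stood at 33.2 and 70.1 RPM in DoxRA and 78.8 and 49.7 in B2RA, against 3.03 and 2.86 in oocytes and 41.9 in E9.5 PGCs. Prex2, a Rac exchange factor, stood at 35.2 and 83.7 RPM in DoxRA and 42.7 and 41.8 in B2RA, against 0.303 and 0 in oocytes and 4.30 in E9.5 PGCs, so culture exceeded the starting level too.

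Some genes of mitosis were among them. Of 22 listed G2 and M phase genes 21 were tested, 8 were of the class that the embryo turns down, 2 were called higher, 17 lay within 1, and the median was 0.73, or 0.41 with TMM factors. Over all tested genes 80.6% lay within 1, 2.74% were called higher and the median was 0.25, or -0.07 with TMM factors. Of the 780 genes that the embryo turned down 84 were called higher. The list as a whole was thus about as often within 1 as other genes. Ccnb1, the mitotic cyclin, stood at 49.4 and 84.5 RPM in DoxRA and 114 and 161 in B2RA, against 31.8 and 10.7 in oocytes and 552 in E9.5 PGCs. Aurkb, a kinase of chromosome segregation, stood at 4.91 and 33.5 RPM in DoxRA and 32.6 and 50.8 in B2RA, against 3.33 and 0.357 in oocytes and 152 in E9.5 PGCs. In the day 7 library of the first protocol Ccnb1 was at 30.4 RPM, inside the range of the oocytes, and the list median was 0.29. Of 26 DNA replication genes, all tested, 22 lay within 1 and 0 were called.

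Some transcripts of stroma and extracellular matrix were higher in culture, in unequal amounts. Of 20 listed feeder and stroma markers 15 were tested and 4 were called higher (Acta2, Col6a1, Col6a2 and Dcn), against 2.74% of all tested genes. Acta2, without a read in either oocyte library, passed the filter through culture alone and could not be called lower. The list median was 2.00. It was 0.49 in DoxRA replicate 1 and likewise 0.49 in the day 7 DoxRA library of the first protocol. The 20 markers summed to 467 and 1348 RPM in DoxRA, 1798 and 915 in B2RA, 345 and 433 in oocytes and 1215 in E9.5 PGCs. DoxRA replicate 1 stood nearest to the oocytes. Thy1, a surface marker of fibroblasts, was at 3.47 and 0 RPM in DoxRA, 0.651 and 0 in B2RA and 0 in oocytes, and Lum was at 2.93 RPM or less in every library.

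Several of the largest overshoots differed widely between libraries, each in its own order. Spp1, a secreted matrix protein, stood at 10.4 and 399 RPM in DoxRA and 53.4 and 71.3 in B2RA, against 0.606 and 3.57 in oocytes. Efemp1, a fibulin, stood at 9.53 and 119 RPM in DoxRA and 39.4 and 32.6 in B2RA, against 0 in both oocyte libraries. Mmp2, a matrix protease, stood at 5.20 and 97.2 RPM in DoxRA and 88.6 and 24.4 in B2RA, against 0.606 and 0.715 in oocytes. Acta2, smooth muscle actin, stood at 9.53 and 7.17 RPM in DoxRA and 103 and 41.3 in B2RA, against 0 in both oocyte libraries and 6.70 in E9.5 PGCs. Tinagl1, a basement membrane protein, was by contrast even, with 33.8 and 49.4 RPM in DoxRA and 35.8 and 38.5 in B2RA, against 0.909 and 0 in oocytes. The part of feeder or stromal cells in these differences was not tested. Of 20 listed gonadal somatic markers 5 were tested and 1, Pdgfra, was called higher, against 2.74% of all tested genes. The list median lay 1.11 below oocytes in DoxRA and 2.14 above them in B2RA. The 20 markers summed to 49.1 and 42.25 RPM in DoxRA, 344 and 120 in B2RA and 57.3 and 50.0 in oocytes. Nr5a1, a defining gene of that soma, was at 0 in all culture libraries and at 1.21 and 0 RPM in oocytes. The part of somatic cells in these sums was not tested.

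Of 15 listed interferon and innate genes 5 were tested, none was called, and the median was 1.59, or 0.91 in the day 7 DoxRA library of the first protocol. H2-K1, a class I antigen presenting molecule with close relatives that could share its reads, stood at 2927 and 5255 RPM in DoxRA and 2236 and 2803 in B2RA, against 922 and 1179 in oocytes and 17.7 in E9.5 PGCs. B2m, its light chain, stood at 309 and 281 RPM in DoxRA and 175 and 123 in B2RA, against 72.4 and 60.0 in oocytes. Every culture library lay above both oocyte libraries at these genes, by less than the size asked of a call.

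The largest difference among called genes was at BY731985, a clone-derived entry for which the table gives no gene name and RefSeq no position. It stood at 1077 and 894 RPM in DoxRA and 903 and 962 in B2RA and was listed at 0 in both oocyte libraries. Like Meiosin, it was at 0 in all 22 libraries of the first extraction protocol: at day 7, DoxRA gave 0 RPM under the first and 801 under the second. These were the only called genes listed at 0 throughout the first protocol, and their differences from oocytes cannot be told apart from it.

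The same day 7 pair shows how far extraction moves with the calls. Of the 33 lower calls 27 stood at least 1 below oocytes in the day 7 DoxRA library of the first protocol too, and 10 met the full rule there. Of the 261 higher calls 176 stood at least 1 above oocytes there and 87 met the full rule. The step between the second and the first protocol in this pair had a median of 0.60 for genes called higher, -0.20 for genes called lower and 0.17 for all tested genes. A step of at least 1 was found in 81 of the 261 higher calls and in 9.10% of all tested genes. The pair also differs by replicate, and day 7 is not day 9.

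**Figure D3:**
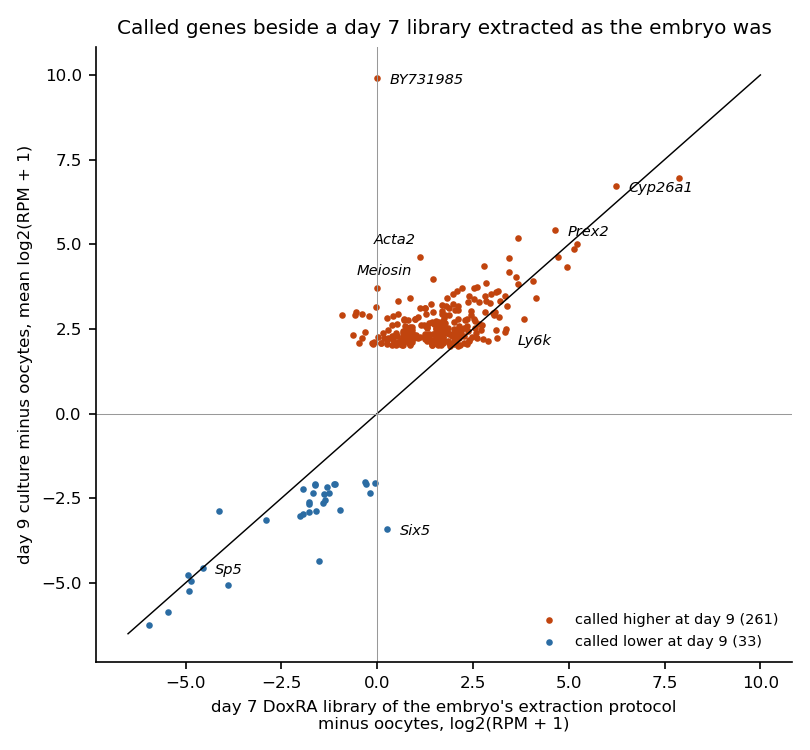
Difference from oocytes of the 294 called genes: mean of the 4 day 9 libraries (vertical) against the single day 7 DoxRA library extracted as the embryo was (horizontal), log2(RPM + 1), with the line of equality. Cyp26a1, Prex2 and Sp5 lie near the line, whereas BY731985 and Meiosin lie at 0 and Six5 just above 0 on the horizontal axis.

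Ribosomal and mitochondrial genes differed between the same libraries. The 48 cytosolic ribosomal protein genes, all tested, had a median of -0.61 at day 9 and 0.04 in the day 7 library of the first protocol, and at day 9 the median was -0.20 in DoxRA replicate 1 and -1.07 in DoxRA replicate 2. The 35 oxidative phosphorylation genes had a median of -0.45 at day 9 and 0.01 in that day 7 library. None of these 83 genes was called. Day, protocol and replicate change together here, and their part was not tested.

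The cultures also differed from each other, among other genes in those that respond to BMP. Limma called 988 genes lower in DoxRA than in B2RA at day 9 (10.6% of 9329 tested) and 136 higher (1.46%). Line and treatment differ together here, and the count rests on the spread shared by all 191 PGCLC libraries: edgeR on these 4 libraries called 50 lower and 6 higher, and limma without B2RA replicate 2 called 400 lower and 36 higher. Nothing in the labels says that replicates came from separate cultures, so p-values measure the spread between these samples, which may be technical.

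All 13 tested BMP response genes of 16 listed were lower in DoxRA than in B2RA by limma, and 8 of them by edgeR. A gene was tested between the cultures with at least 10 RPM in 2 of their 4 libraries. Members such as Msx1 and Smad7 passed through B2RA alone, so their place below B2RA was largely fixed by the filter. The count of 13 is therefore a description. Without B2RA replicate 1 or replicate 2 only 6 members were tested, of which limma called 5 and 6 lower. The list median lay 1.24 below oocytes in DoxRA and 1.99 above them in B2RA. At 6 of the 13 genes both DoxRA libraries lay below and both B2RA libraries above both oocyte libraries, an order found in 3.46% of all tested genes. Day 7 DoxRA under the first protocol had a list median of -1.83.

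Id1, Id2 and Id3 encode inhibitors of helix-loop-helix factors and are direct targets of BMP signalling. Id3 stood at 12.1 and 27.1 RPM in DoxRA and 969 and 924 in B2RA, against 325 and 255 in oocytes and 304 in E9.5 PGCs. The DoxRA minus B2RA difference was -5.62 ± 0.37 (log2, SE; adjusted p = 5.35e-24). Id1 stood at 16.5 and 25.5 RPM in DoxRA and 430 and 498 in B2RA, against 185 and 177 in oocytes. Gata2, a transcription factor of fetal oocytes, stood at 14.7 and 10.4 RPM in DoxRA and 174 and 164 in B2RA, against 69.4 and 53.3 in oocytes. Smad7, a feedback inhibitor of the pathway, stood at 2.31 and 6.38 RPM in DoxRA and 36.5 and 37.9 in B2RA, against 6.67 and 4.29 in oocytes, so that oocytes matched DoxRA at this gene. Msx1, a homeobox gene, stood at 3.18 and 0.797 RPM in DoxRA and 33.2 and 55.6 in B2RA, against 46.4 and 45.0 in oocytes, so that oocytes matched B2RA at this one.

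Most early germ cell genes were lower in DoxRA than in B2RA. Of 15 listed 9 passed the filter, 8 of those were tested between the cultures, and limma called 6 lower in DoxRA and edgeR 4. Limma called 10.6% of all tested genes lower. Here too some members, such as Dppa3, passed the filter through B2RA alone. Without B2RA replicate 1 or replicate 2 limma called 2 and 3 of 5 tested. Rhox9, an X-linked homeobox gene with close relatives that could share its reads, stood at 31.2 and 15.1 RPM in DoxRA and 282 and 446 in B2RA, against 149 and 69.3 in oocytes and 440 in E9.5 PGCs. Dppa5a, an RNA-binding protein counted in the pluripotency list and not among these, stood at 41.6 and 31.1 RPM in DoxRA and 251 and 380 in B2RA, against 172 and 106 in oocytes and 653 in E9.5 PGCs. Kit, the SCF receptor, did not meet the threshold between the cultures, with 45.9 and 32.7 RPM in DoxRA and 64.2 and 90.7 in B2RA, against 28.5 and 20.7 in oocytes and 298 in E9.5 PGCs. Of the 9 early germ cell genes 6 fell between day 7 and day 9, Dppa3 by 2.81 ± 0.26 (log2, SE; limma adjusted p = 5.47e-15).

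Some glycolysis and imprinted genes were lower in DoxRA as well. Over all tested genes limma called 10.6% lower in DoxRA and 1.46% higher. Of 21 listed glycolysis genes 16 were tested and limma called 7 lower in DoxRA, whereas edgeR called 0 and had 8 lower at an unadjusted p under 0.05. Their median lay 0.19 above oocytes in DoxRA and 1.34 above them in B2RA. Pgam1, an enzyme of lower glycolysis, stood at 76.2 and 82.1 RPM in DoxRA and 169 and 122 in B2RA, against 52.4 and 33.2 in oocytes and 768 in E9.5 PGCs, and its difference between the cultures was short of the size asked of a call. Of 31 listed imprinted genes 17 were tested, and limma called 9 lower and 1 higher in DoxRA, edgeR 1 lower, and limma without B2RA replicate 1 called 2 lower of 12. H19, a growth-restraining RNA expressed from the maternal allele, was called higher than in oocytes, with 181 and 162 RPM in DoxRA and 489 and 109 in B2RA, against 25.8 and 32.5 in oocytes and 70.1 in E9.5 PGCs.

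**Figure D4:**
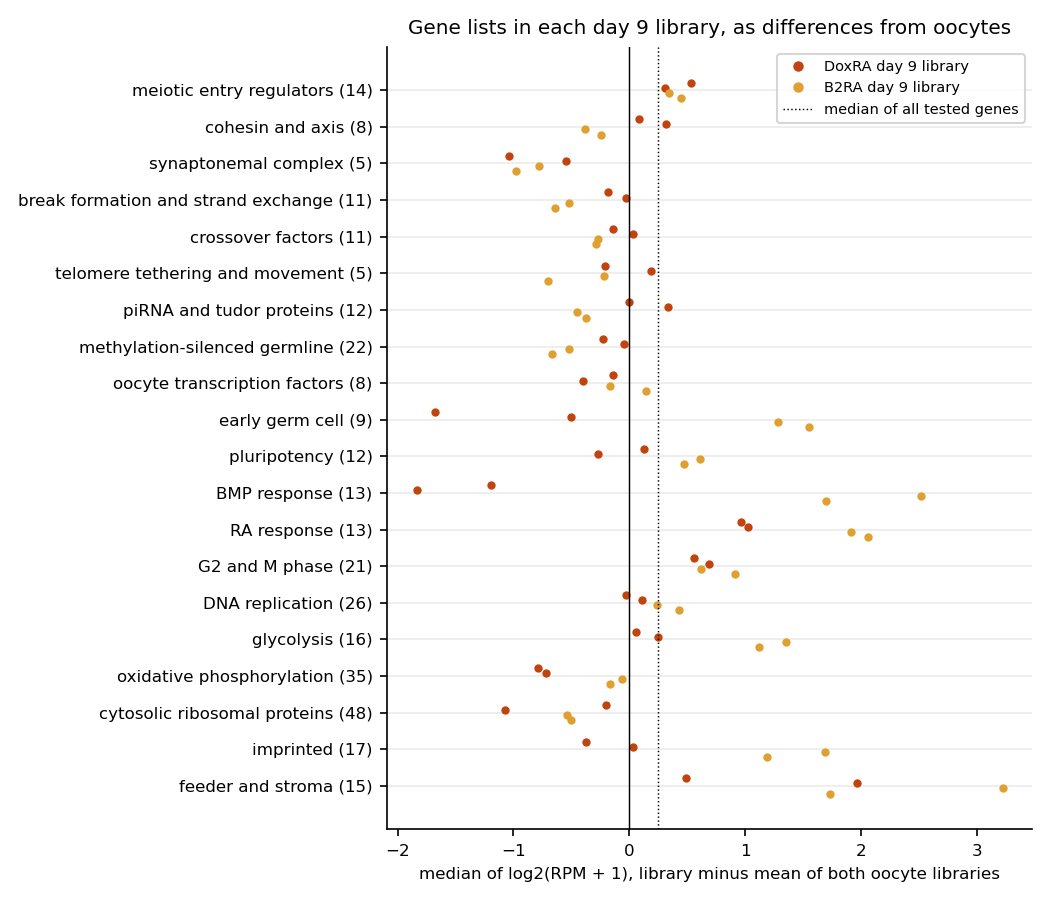
Median difference from oocytes of each gene list in each of the 4 day 9 libraries, log2(RPM + 1), with the number of tested genes in brackets and the median of all tested genes (0.25) dotted. All meiotic lists lie between -1.04 and 0.53, whereas DoxRA and B2RA lie apart for early germ cell, BMP response, imprinted and glycolysis genes.

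X-linked genes stood lower in DoxRA than in B2RA in the median. The 370 tested X-linked genes had a median difference from oocytes of -0.37 in DoxRA and 0.35 in B2RA. Across the 19 autosomes the medians ran from 0.04 to 0.38 in DoxRA and from 0.20 to 0.36 in B2RA. Limma called 110 of 360 X-linked genes (30.6%) lower in DoxRA than in B2RA, against 4.7% to 14.0% on single autosomes, and edgeR called 9.

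Relative to the autosomal median of its own library, the X-linked median stood at -0.59 and -0.57 in DoxRA and 0.11 and 0.08 in B2RA at day 9, with oocytes at -0.01 and 0.01 by construction and E9.5 PGCs at -0.68. All 15 day 9 libraries of clone A2, whatever the treatment, lay between -0.73 and -0.51, and all 64 libraries of this clone between -1.09 and -0.49. The 27 libraries of H18 ran from -0.61 to 0.11, and its 4 day 9 libraries from -0.32 to 0.11. Low levels were found in other lines too. At day 9 the Zglp1 knockout lines E5 (-0.89 to -0.60) and G10 (-0.81 to -0.64) were in or near the same range. So were the Stra8 knockout line B6 (-0.87 to -0.58) and line A11 (-0.76 to -0.53), which combines Zglp1 overexpression with Stra8 knockout. B2RA libraries of E5, G10 and B6 are included in these ranges. The Stra8 knockout line F6 ran from -0.43 to 0.02. The clone and the treatment of DoxRA cannot be told apart in the comparison with B2RA.

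**Figure D5:**
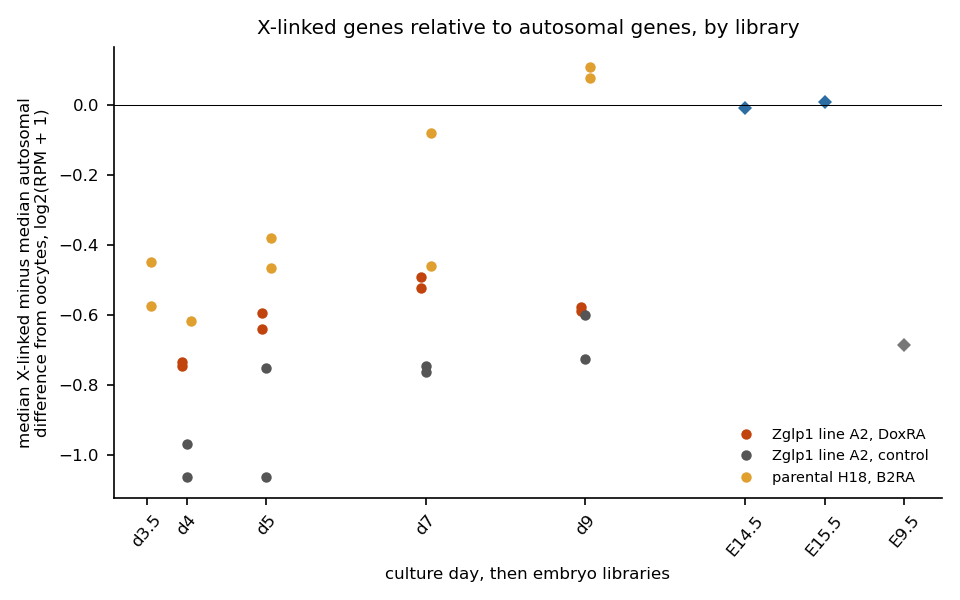
Median of X-linked genes minus median of autosomal genes, each as differences from the oocyte mean in log2(RPM + 1), 1 point per library, by culture day for clone A2 (DoxRA and control) and H18 (B2RA), then for the embryo libraries. B2RA libraries of H18 reach 0.11 and 0.08 at day 9, level with oocytes, whereas clone A2 lies at or below -0.49 on every day.

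Between the oocyte stages few genes moved far. At E15.5, 19 tested genes stood at least 1 (log2) higher and 45 at least 1 lower than at E14.5. Culture lay nearer to E15.5 for 15 of the 19 and for 20 of the 45, but it lay outside both stages at many of them: above both at 10 and below both at 2 of the 19, and above both at 15 and below both at 10 of the 45. With 1 library per stage these counts have no replicate check.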

How the data were processed

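Values were deposited by the authors as RPM, reads per 1000000 reads of endogenous genes, in one table of the series, with 195 value columns. Of these, 194 were matched to labelled samples, 1 column was not used, and 2 labelled samples have no column. Dividing by what 1 read is worth gave whole reads for 100.0% of values within a tolerance of 0.05. The 25706 endogenous genes sum to 1000000 in each column and 3 transgene rows come on top; columns that these lift above that sum were recorded as signal, and the authors' scale is the same. The submitters' processing notes name HTSeq 0.9.1, TopHat2 2.1.0, SAMtools 1.3, cutadapt 1.9.1, Bowtie 1.1.2 and build mm10; roles and annotation are not given in the sources used here. Per the labels' protocols, 3' cDNA was amplified from 1 ng of RNA, so PCR copies may be counted, and floors of 3 reads cover counting error only. On reading, 3 lines were realigned, and 2 symbols occur more than once.

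Differences were means of log2(RPM + 1), over genes with at least 10 RPM in 2 of the 6 libraries. limma 3.58.1 (trend and robust, R 4.3.3) was fitted to all 191 PGCLC libraries; calls need a Benjamini-Hochberg adjusted p under 0.05 and a change of at least 1. edgeR 4.0.16 on recovered reads was an alternative, and the limma step was tested on simulated data. Other alternatives were the pseudocount, the filter, TMM factors, the size asked of a call, the replicate block and leaving out each library. Replicate libraries differed by more than sampling noise.

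Named genes are Zglp1, Stra8, Dppa3, Prdm1 and Ddx4, list members, and the largest called differences with at least 20 RPM in the higher group. The genes with the largest rise from E9.5 among those that culture matched are named as well. The members and the 39 gene lists were chosen with earlier results of these data known, and 1 called list member is not reported here. Gene positions and promoters are from RefSeq, build GRCm38.p6.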

Additional observations from a re-analysis of the deposited data

Results flagged for a closer look

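At 11 of the named genes the step from oocytes went opposite ways in the cultures: both DoxRA libraries lay below and both B2RA libraries above both oocyte libraries, by at least 1 (log2) in each mean, with at least 20 RPM in culture or oocytes, and the DoxRA minus B2RA difference passed the limma test (Benjamini-Hochberg adjusted; log2 differences follow). Over all 9530 tested genes, 330 (3.46%) had this order at any size and 46 had it by at least 1 on each side. The named genes were Id3 (-5.6239), Phlda2 (-5.0501), Phf19 (-4.9434), Igfbp5 (-4.9365), Id1 (-4.4296), Rhox9 (-3.9632), Id2 (-3.9128), Gata2 (-3.6658), Msx2 (-3.4551), Dppa5a (-3.0681) and Rhox6 (-3.0227). Phlda2, an imprinted gene that restrains placental growth, stood at 0.578 and 3.19 RPM in DoxRA and 69.7 and 102 in B2RA, against 34.5 and 6.43 in oocytes. Igfbp5, an IGF-binding protein, stood at 0.289 and 1.59 RPM in DoxRA and 149 and 19.9 in B2RA, against 3.94 and 7.86 in oocytes.

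The mCherry row, which belongs to the transgene of clone A2, held 216.651 RPM in E14.5 and 230.876 RPM in E15.5 oocytes, which carry Ddx4-RFP and not this transgene, and 0 in E9.5 PGCs.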

How the results depend on the processing

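Between culture and oocytes, genes called lower and higher numbered 33 and 261. They numbered 14 and 67 with a pseudocount of 5, 9 and 38 with a filter of 50 RPM, 258 and 1246 at a difference of at least 1, 11 and 56 at 3, 82 and 428 with day 7 of both treatments, and 56 and 126 with the day 7 DoxRA library of the first protocol. With no filter 59 and with TMM factors 50 were lower, with DoxRA only 108 were lower, and with B2RA only 459 were higher. Leaving out 1 library gave 27 to 44 lower and 248 to 380 higher. Day 7 Dox and DoxRA libraries of the first protocol, an alternative chosen after seeing the data, gave 41 and 182. Six5 reversed to 0.26 in the day 7 first-protocol library and Reg2 to -0.55 with day 7 of both treatments. With E9.5 classes cut at 1, rising genes held 18 higher calls, falling genes 2 lower and 143 higher, and the rest 8 lower and 100 higher; with TMM, rising genes held 30 lower, falling genes 1 lower and the rest 112 higher. The cause was not tested.

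The DoxRA minus B2RA count (1124) was 2546 with no filter, 121 with the compared groups only, 56 by edgeR and 436 to 1137 leaving out 1 library. The day 9 minus day 7 count (1273) was 682 with a pseudocount of 5, 2014 with no filter, 436 with the compared groups only, 413 by edgeR and 970 to 1702 leaving out 1 library. Correlations of same-numbered deviations were 0.05 between DoxRA and B2RA at day 9 and -0.02 between day 7 and day 9 of DoxRA. Between these days of B2RA the correlation was 0.28, so some pairing by number is possible there. With the replicate block the counts were 1134 and 1275. Depth limits DoxRA replicate 2, where 1 read is worth 0.797 RPM.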
